A study of Mus musculus with 6 samples.

Results

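The 8 macrophage polarization genes examined here were Nos2, Mrc1, Chil3, Retnla, Clec10a, Mgl2, Il10 and Il4ra. They were found by their gene name in each count table, and all 8 were present among the 25722 listed genes. The study compared mouse BMSCs, the adherent cells grown from C57BL/6 bone marrow. There were 3 control libraries with solvent (DMSO) and 3 libraries of cells treated with all-trans retinoic acid (RA). Per the labels, RA was given at 1 μM and both groups were incubated for 48 h, whereas the study's methods give a lower dose and a shorter time for cells taken for RNA. All cultures grew in low oxygen with serum and a ROCK inhibitor, and the labels name no other agent. The cells came from tibia and femur, were freed of non-adherent cells after plating and were used at early passage. The labels speak of 2 biological replicates, while 3 libraries per group were analysed, and whether each is a separate culture is not given. The p-values thus measure the spread between these libraries, which may be partly technical. Over the genes tested, the counts of control 1 and 3 differed by a chi-square of 4.81 per degree of freedom. The other pairs within a group had 30.2 to 91.7.

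Macrophages take on different states that are told apart by a small number of genes. The interferon-driven, or classical, state uses arginine through the inducible nitric oxide synthase Nos2. Macrophages of the IL-4-driven, or alternative, state are known in the mouse for surface lectins (Mrc1, Clec10a, Mgl2), for the secreted proteins Chil3 and Retnla, and for signaling through the IL-4 receptor α chain Il4ra and the transcription factor STAT6. IL-10 is a cytokine that restrains inflammatory macrophages.

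Of the 8 genes, 5 were measured well enough to be tested: Nos2, Mrc1, Clec10a, Il10 and Il4ra. None of them passed the test for a difference between RA-treated and control BMSCs, and the fitted changes lay between -0.52 (Clec10a) and -0.15 (Nos2) on the log2 scale. In edgeR's quasi-likelihood test, 0 of the 5 genes were called (a 1.5-fold or larger change and an adjusted p under 0.05), where 0.0433% of all 13842 genes tested were called. At an unadjusted p under 0.05 there were 0 of 5, against 5.25% of all genes, and with DESeq2 and with edgeR's likelihood ratio test 0 of 5 were called, against 0.983% and 0.968% of all genes. A fitted change of 1.5-fold or more was seen in 0 of 5, against 10.9% of all genes. The groups overlapped in all 5 genes, whereas 12.6% of all genes had groups that did not overlap, 5.71% with all RA-treated libraries above and 6.87% with all of them below the controls. Chil3, Retnla and Mgl2 stayed below the expression filter and were not tested.

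Some properties of the 6 libraries bear on every value below. Totals ran from 14737636 to 18511905 counts. On the first principal component of 1000 variable genes, which held 57.4% of their variance and used none of the polarization, pathway or marker genes, RA-treated 1 and 2 together with control 2 (set 1) stood apart from RA-treated 3 with controls 1 and 3 (set 2). No label or text names a date or batch for the libraries, so values are also given within each set. The 14 macrophage markers summed to 20830 to 23630 CPM (counts per 1000000, scaled by the TMM method) in each library, with the F4/80 gene Adgre1 at 4463 to 6379 CPM and the growth factor receptor Csf1r at 946.9 to 1396 CPM, and none was near 0. The 12 stromal markers summed to 1688 to 4434 CPM. Of the defining mesenchymal markers, Thy1 and Nt5e had 29 and 60 counts over all 6 libraries, whereas Eng (CD105) had 4429 counts (33.06 to 59.8 CPM). The stromal genes Pdgfrb and Col1a1 had 9399 and 88084 counts. Among the stromal markers Lepr and Cxcl12 were higher in all RA-treated libraries (log2 fold changes 3.35 and 0.34) and Ly6a lower (-0.90), with an unadjusted p under 0.05 and an adjusted p of at least 0.172 in edgeR. With the set in the model, edgeR called Lepr (3.58, adjusted p = 0.00644) and Ly6a (-0.91, adjusted p = 0.0152). Lepr had few counts, 7, 9 and 7 in control 1, 2 and 3 and 45, 48 and 139 in RA-treated 1, 2 and 3. The collagens Col1a1, Col1a2 and Col3a1 had log2 fold changes of -0.58, -0.56 and -0.41, and of -0.91, -0.85 and -0.68 with the set in the model (unadjusted p 0.00552, 0.00148 and 0.00991, adjusted p of at least 0.0672, edgeR). Neither sum parted the groups, with macrophage markers at 21250 to 23630 CPM in control and 20830 to 22550 CPM in RA-treated BMSCs, and stromal markers at 2306 to 4434 and 1688 to 3458 CPM. Within each set the stromal sum was lower in RA-treated libraries, at 3458 and 2217 against 4434 CPM in set 1 and at 1688 against 2306 and 2548 CPM in set 2, as was Nos2, and its part in the Nos2 values was not tested. The 3 collagens held most of this sum (1648, 1390 and 661.5 CPM in control 2). Within both sets the collagens, Ly6a, Eng and Vcam1 were lower after RA. Pdgfra (log2 CPM differences 0.45 and 0.64), Cxcl12 and Lepr were higher, and Pdgfrb differed in sign. The macrophage sums of the library sets also overlapped, at 20830 to 21920 CPM in set 1 and 21250 to 23630 CPM in set 2. Single markers went opposite ways. Lyz2, with the most counts, was higher in set 1 (8722 to 9779 against 5543 to 6629 CPM), as was Fcgr1. By contrast, 10 markers were higher in set 2, among them Adgre1 (5752 to 6379 against 4463 to 5066 CPM). The overlap of the sums thus does not mean equal levels of each marker. Markers of neutrophils, dendritic cells, mast cells, basophils, eosinophils, T cells and B cells summed to at most 5.39 CPM per list and library, and those of endothelial cells to at most 16.9 CPM. Macrophage markers were thus far above stromal ones in libraries labelled as marrow mesenchymal cells. The share of each cell type in a culture was not measured, and the part of the cell mixture in the values below was not tested. A gene can differ through fewer cells of a type or through less RNA per cell, and these cannot be told apart in bulk RNA. As a check of the treatment, Cyp26b1, an RA-degrading enzyme, stood at 4.68 to 5.96 CPM in the controls and at 87.1 to 123.7 CPM after RA (adjusted p = 0.00207, edgeR). Cd38, also RA-responsive, stood at 8.03 to 9.97 and 40.7 to 53.8 CPM (adjusted p = 0.0202, edgeR). Of the other genes of the RA response, Cyp26a1, Rarb and Crabp2 (log2 fold changes 2.31 to 4.03) and Rara (-0.52) had an unadjusted p under 0.05 with groups apart and an adjusted p of at least 0.156 in edgeR. The model with the set called Cyp26a1 (4.42, adjusted p = 0.0114, edgeR) and Rarb (3.70, adjusted p = 0.00387, edgeR).

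The promoters of 5 of the 8 genes were found in the RefSeq table of build GRCm38.p6. Those of 3 genes are shown, 5′ to 3′ on the strand of the gene, as the 250 bases before the RefSeq start, because the abundant lectin gene Mrc1 and the nearly silent genes Chil3 and Retnla are usually listed together as targets of IL-4. Capitals mark the letters TTC and GAA with 3 or 4 bases between them, a palindrome to which STAT factors can bind, the nuclear receptor half-site AGGTCA and the TATA box TATAAA, each searched on both strands.
Mrc1 (chr2:14229164-14229413, plus strand): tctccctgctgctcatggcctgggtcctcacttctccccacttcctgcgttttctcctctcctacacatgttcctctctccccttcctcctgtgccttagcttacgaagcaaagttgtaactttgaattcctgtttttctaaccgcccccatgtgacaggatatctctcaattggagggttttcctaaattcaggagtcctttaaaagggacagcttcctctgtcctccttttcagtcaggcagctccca
Chil3 (chr3:106167565-106167814, minus strand): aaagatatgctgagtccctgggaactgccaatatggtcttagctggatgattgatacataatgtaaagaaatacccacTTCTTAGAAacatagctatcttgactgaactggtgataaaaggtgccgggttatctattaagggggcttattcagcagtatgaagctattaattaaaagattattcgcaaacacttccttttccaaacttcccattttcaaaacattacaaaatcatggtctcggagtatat
Retnla (chr16:48842359-48842608, plus strand): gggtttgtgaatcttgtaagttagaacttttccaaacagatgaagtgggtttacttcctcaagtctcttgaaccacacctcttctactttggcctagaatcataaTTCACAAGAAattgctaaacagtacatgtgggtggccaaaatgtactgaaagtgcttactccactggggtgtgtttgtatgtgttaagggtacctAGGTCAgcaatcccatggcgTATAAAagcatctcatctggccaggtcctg
The Retnla window held 1 palindrome with 4 bases between, 1 AGGTCA and 1 TATAAA, and the Chil3 window held 1 palindrome with 3 bases between. The Mrc1 window held none of the 4 motifs, as did those of Il4ra and Mgl2. Over 32851 promoter windows of the same length, the palindrome with 4 bases between was present in 5.85%, that with 3 in 7.02%, AGGTCA in 14% and TATAAA in 12.4%. No match overlapped another in these windows. These matches are descriptions of the letters only.

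Nos2 (ENSMUSG00000020826, chromosome 11 from 78920787 to 78960254, plus strand), the inducible nitric oxide synthase, parted by library set. It had 2.38, 23.9 and 1.99 CPM in control 1, 2 and 3 and 13.4, 10.3 and 1.84 CPM in RA-treated 1, 2 and 3. The groups overlapped fully, whereas set 1 (10.3 to 23.9 CPM) and set 2 (1.84 to 2.38 CPM) did not overlap. The log2 fold change was -0.15 (standard error, SE, 1.08, 95% confidence interval -2.73 to 2.42, adjusted p = 0.977, edgeR), so that changes of several fold in either direction lie within the error. Within the sets the RA-treated libraries were lower, with differences of -1.02 and -0.23 on the log2 CPM scale. Once the set was included in the model, Nos2 had a log2 fold change of -0.77 (SE 0.22, unadjusted p = 0.00837 and adjusted p = 0.167 with edgeR). In that model 0 of the 5 genes were called, where 1.54% of all genes tested were, and 1 of 5, Nos2, had an unadjusted p under 0.05, where 15.1% of all genes did. Set 1 holds 1 control and set 2 holds 1 RA-treated library, so the spread within those arms is taken from the other libraries. These are RA-treated 1 and 2 and control 1 and 3, the same-group pairs with the lowest chi-square per degree of freedom.

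Il4ra (ENSMUSG00000030748, chromosome 7 from 125552120 to 125579474, plus strand), the chain that IL-4 and IL-13 receptors share, had the highest level of the 8 genes. It had 585.5, 352.5 and 486.5 CPM in control 1, 2 and 3 and 313.6, 296.7 and 474.6 CPM in RA-treated 1, 2 and 3. The RA-treated libraries of set 1 lay below all controls, while RA-treated 3 lay among them. The mean was 474.8 ± 116.9 CPM (SD, n = 3) in control and 361.6 ± 98.2 CPM (SD, n = 3) after RA, with a log2 fold change of -0.39 (SE 0.26, 95% confidence interval -1.01 to 0.22, adjusted p = 0.795, edgeR). The differences within the sets were -0.21 and -0.17 on the log2 CPM scale. Exons of the antisense gene Gm44876 overlap 571 of the 6002 exonic bases of Il4ra, and reads there cannot be assigned without strand.

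Il10 (ENSMUSG00000016529, chromosome 1 from 131019845 to 131024974, plus strand) varied least among the controls. It had 11.35, 10.3 and 11.3 CPM in control 1, 2 and 3 and 6.45, 7.55 and 10.8 CPM in RA-treated 1, 2 and 3. As for Il4ra, both RA-treated libraries of set 1 were below every control and RA-treated 3 was not. The log2 fold change was -0.41 (SE 0.23, 95% confidence interval -0.95 to 0.13, unadjusted p = 0.114 and adjusted p = 0.795 with edgeR), and the differences within the sets were -0.56 and -0.07 on the log2 CPM scale.

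Mrc1 (ENSMUSG00000026712, chromosome 2 from 14229392 to 14332057, plus strand), the mannose receptor CD206, was abundant. It had 331, 105.2 and 448.7 CPM in control 1, 2 and 3 and 181.9, 190.8 and 405 CPM in RA-treated 1, 2 and 3. Control 2 was the lowest of the 6 libraries and control 3 the highest, and set 2 (331 to 448.7 CPM) lay above set 1 (105.2 to 190.8 CPM). The log2 fold change was -0.19 (SE 0.55, adjusted p = 0.938, edgeR). Within set 1 the RA-treated libraries were higher by 0.82 on the log2 CPM scale, and within set 2 the difference was 0.07.

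Clec10a and Mgl2 are neighbouring genes on chromosome 11 that encode related galactose-binding lectins. Clec10a (ENSMUSG00000000318, from 70156197 to 70170834) had 3.85, 0.851 and 4.88 CPM in control 1, 2 and 3 and 1.501, 1.27 and 3.89 CPM in RA-treated 1, 2 and 3. The groups overlapped, and set 2 again lay above set 1, with a log2 fold change after RA of -0.52 (SE 0.70, adjusted p = 0.853, edgeR). Within the sets the differences were 0.63 and -0.15 on the log2 CPM scale. Mgl2 (ENSMUSG00000040950, from 70130329 to 70137550) had 0, 0 and 3 counts in the controls and 1 count in each RA-treated library, too few for any comparison. Of all 50-base stretches in their transcripts, 9.02% of those of Clec10a and 13.1% of those of Mgl2 also occur in another gene, mostly in the other lectin, so reads of the pair may be partly exchanged.

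The secreted proteins were hardly detected. Chil3 (ENSMUSG00000040809, chromosome 3), a chitinase-like lectin also called Ym1, had 2, 0 and 0 counts in the controls and 5, 0 and 3 counts after RA. It shares 26.9% of its 50-base stretches with other genes, most of them with Chil4. Retnla (ENSMUSG00000061100, chromosome 16), a resistin-like protein also called Fizz1, had 0, 1 and 2 counts in the controls and 2, 1 and 1 counts after RA. Since 3 counts correspond to between 0.160 and 0.210 CPM in a library, no difference in Chil3, Retnla or Mgl2 was detectable at this depth, and counting error is the least error these values carry.

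**Figure D1:**
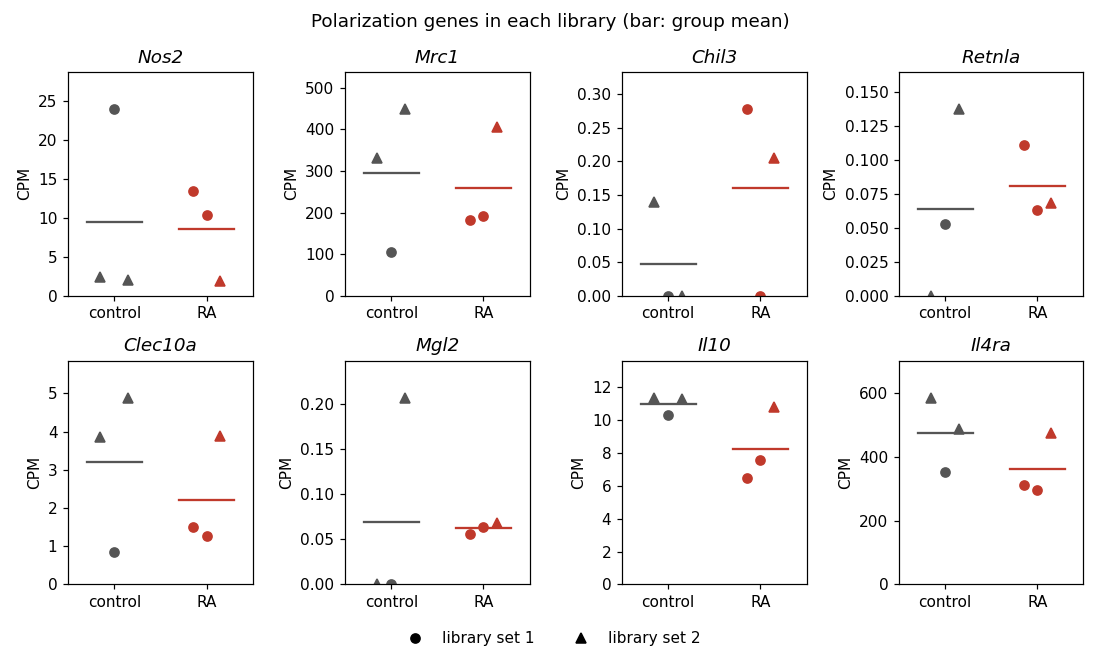
CPM (linear axes from 0) of the 8 genes in each library, control in grey and RA-treated in red, with horizontal bars at the group means (n = 3). Circles are library set 1 and triangles set 2: Nos2 is higher in set 1 (10.3 to 23.9 CPM) than in set 2 (1.84 to 2.38 CPM), and Mrc1, Clec10a, Il10 and Il4ra are higher in set 2.

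Per kilobase of exon (RPKM), which allows genes to be compared, the mean level over the 6 libraries was highest for Il4ra (69.7 RPKM) and Mrc1 (43.5 RPKM), whose ranges over libraries overlapped. Il10 followed at 7.34 RPKM, below every library of Mrc1. Nos2 (2.04 RPKM) and Clec10a (0.934 RPKM) came next, and the range of Nos2 overlapped both that of Il10 and that of Clec10a.

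Ratios within each library need no scaling between libraries. The ratio of Mrc1 to Il4ra counts was 0.565, 0.299 and 0.922 in control 1, 2 and 3 and 0.580, 0.643 and 0.853 in RA-treated 1, 2 and 3. The groups overlapped, with control 2 lowest and control 3 highest, and the log2 difference was 0.34 (exact two-sided permutation p = 0.6, where 0.1 is the smallest that 3 libraries against 3 allow). The difference was -0.08 without control 2 and 0.73 without control 3, and 1.03 and 0.24 within set 1 and set 2. After Benjamini-Hochberg adjustment over the 6 ratios computed, this one had an adjusted value of 1 and the lowest was 0.9.

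Each tested gene was also set against the summed counts of the 14 macrophage markers of its library. The summed markers themselves differed by -0.04 on the log2 scale. Lyz2 and Adgre1 made up most of the sum (9779 and 5066 of 21920 CPM in control 2). Lyz2 was higher in set 1 and Adgre1 in set 2, so a ratio to the sum is not a ratio to each marker. Per 100000 macrophage marker counts, Mrc1 had 480.3 to 1899 counts in the controls and 873.3 to 1796 after RA (log2 difference -0.01, exact permutation p = 1). This difference was -0.62 without control 2 and 0.37 without control 3, and 0.88 and 0.06 within the sets. Nos2, Clec10a, Il10 and Il4ra had log2 differences between -0.40 and 0.43, with overlapping groups and exact permutation p between 0.3 and 1. That of Nos2 (0.43) was -0.97 and -0.25 within the sets and ran from -0.25 without control 3 to 1.58 without control 2. That of Clec10a (-0.33) was 0.74 and -0.17 within the sets and ran from -1.09 without control 2 to 0.10 without control 3. Those of Il10 (-0.40) and Il4ra (-0.35) stayed below 0 within both sets and with each library left out. Within set 1 and set 2 Il10 was at -0.51 and -0.08 and Il4ra at -0.16 and -0.18. With each library left out Il10 ran from -0.58 to -0.27 and Il4ra from -0.54 to -0.15.

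**Figure D2:**
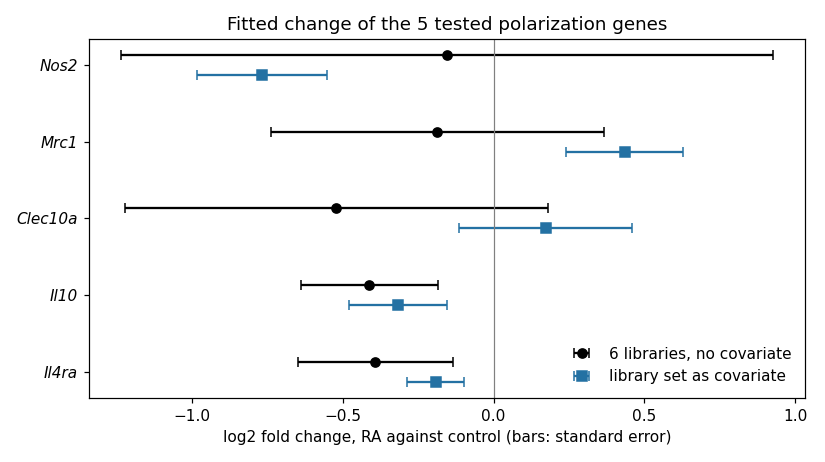
Fitted log2 fold change of the 5 tested genes, RA against control, with the standard error as horizontal bars, over all 6 libraries without a covariate (black circles) and with the set in the model (blue squares). Nos2 lies at -0.15 and -0.77, and the estimates of Mrc1 and Clec10a lie on the other side of 0 once the set is in the fit.

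The order of the libraries followed the set in these genes. All 5 tested genes had sets that did not overlap, where 47.7% of all genes tested did. Nos2 was higher in set 1, by 2.78 on the log2 CPM scale, and Mrc1, Clec10a, Il10 and Il4ra were higher in set 2, by differences (set 1 minus set 2) of -1.35, -1.73, -0.48 and -0.68. The sets did not overlap in 12 of the 14 macrophage markers either, 10 of them higher in set 2, and in 4 of the 10 tested stromal markers (Pdgfra, Pdgfrb, Eng and Vcam1), all 4 higher in set 1 as Nos2 was. In 4 of the 5 genes the RA-treated libraries differed from the controls in the same direction within both sets, as did 65.9% of all genes, and Clec10a was the exception. The median log2 fold change of the 5 genes was -0.39 without the set in the model, with 5 lower and 0 higher, and -0.19 with it, with 3 lower and 2 higher, against -0.02 and -0.004 over all genes tested. Mrc1 and Il4ra, the polarization genes with a mean of at least 10 CPM, were compared with all genes tested. The pattern of Mrc1 over the 6 libraries was most like that of Nlrp1b, Abca9 and Rnf150 (Pearson correlations of log2 CPM of 0.997, 0.996 and 0.996) and that of Il4ra most like Grcc10, Spi1 and Gak (0.999 each). As 428 and 568 genes respectively had a correlation over 0.95, and the 6 points share the split into sets, this likeness is shared by many genes.

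Other genes of the same pathways were taken from 5 lists written for this comparison. Of 113 genes, 89 passed the filter. In edgeR's quasi-likelihood test 0 of these 89 were called (0.0433% of all genes were), 6 had an unadjusted p under 0.05 (5.25% of all genes did), and their median log2 fold change was -0.17, with 24 higher and 65 lower, where all genes tested had a median of -0.02 with 6549 higher and 7293 lower. DESeq2 and edgeR's likelihood ratio test each called 2 of the 89, Gatm and Tgm2, both higher after RA, where they called 0.983% and 0.968% of all genes.

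Of 33 genes of arginine and polyamine handling, 28 were tested, with 4 higher, 24 lower and a median log2 fold change of -0.16. Gatm, which uses arginine to make the precursor of creatine, had 33.6, 31.9 and 34.2 CPM in control 1, 2 and 3 and 59.1, 68.3 and 45.7 CPM in RA-treated 1, 2 and 3. The groups did not overlap, and the log2 fold change was 0.80 (SE 0.17, unadjusted p = 0.00219 and adjusted p = 0.342 with edgeR). With the set in the model it was 0.715 (adjusted p = 0.0659, edgeR), and Gatm was not called. The ornithine decarboxylase Odc1, which turns ornithine into putrescine, followed the library set, with 93.7 to 102.5 CPM in set 1 and 32.0 to 41.5 CPM in set 2 (log2 fold change after RA 0.48, adjusted p = 0.836, and 0.10 with the set in the model, edgeR). Ass1, which takes part in regenerating arginine from citrulline, had 31.9, 46.9 and 26.5 CPM in the controls and 29.9, 30.1 and 18.1 CPM after RA (log2 fold change -0.43, adjusted p = 0.795, edgeR). In the model with the set, Ass1 was the one gene of this list called (log2 fold change -0.67, adjusted p = 0.0331, edgeR), 1 of 28, where 1.54% of all genes were.

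Of 22 genes of the IL-4 and IL-13 response, 18 were tested, with a median log2 fold change of -0.22. Il4 and Il13 had 3 counts each over all libraries. The signal transducer Stat6 was present at 198.1 to 207.2 CPM in the controls and 182.4 to 200.4 CPM after RA (log2 fold change -0.10, adjusted p = 0.818, edgeR). The receptor chains Il13ra1 and Il2rg differed by 0.05 and 0.03 on the log2 scale (adjusted p 0.978 and 0.966, edgeR), and by -0.25 and -0.08 with the set in the model. Klf4 and Kdm6b, a transcription factor and a histone demethylase linked to alternative activation, were lower in all RA-treated libraries. Klf4 had 10.8 to 14.8 CPM in the controls and 8.12 to 8.45 CPM after RA (log2 fold change -0.57, unadjusted p = 0.0178 and adjusted p = 0.795 with edgeR). Kdm6b had 17.2 to 25.4 CPM in the controls and 11.7 to 15.7 CPM after RA (log2 fold change -0.52, unadjusted p = 0.0447 and adjusted p = 0.795 with edgeR).

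Of 11 genes of the IL-10 response, all 11 were tested, with a median log2 fold change of -0.29 and 0 at an unadjusted p under 0.05 in edgeR. The model with the set gave a median of -0.08, with 5 higher and 6 lower. The receptor chain Il10ra had 96.05 to 115.1 CPM in set 1 and 245.8 to 254.1 CPM in set 2, and Il10rb 107.2 to 131.6 and 192.7 to 199.6 CPM, and the log2 fold changes after RA were -0.34 and -0.20 (adjusted p 0.861 and 0.869, edgeR). Their sign turned with the set in the model, to 0.09 and 0.08.

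Of 25 other genes of alternative activation, 15 were tested, with 5 higher, 10 lower and a median log2 fold change of -0.11. With the set in the model 9 were higher and 6 lower, and the median was 0.012. Tgm2, a transglutaminase known both as a marker of alternative activation and as an RA target, had 53.65, 92.1 and 58.9 CPM in control 1, 2 and 3 and 253.6, 206.3 and 177 CPM in RA-treated 1, 2 and 3. The groups were well apart, and the log2 fold change was 1.64 (SE 0.25, unadjusted p = 0.000365 and adjusted p = 0.193 with edgeR). In the model with the set, Tgm2 was called (log2 fold change 1.49, adjusted p = 0.00227, edgeR). The macrophage elastase Mmp12 had 21.4 to 24.9 CPM in the controls and 27.1 to 31.9 CPM after RA (log2 fold change 0.35, unadjusted p = 0.0331 and adjusted p = 0.795 with edgeR). The scavenger receptors Cd163 and Msr1 differed by 0.55 and 0.61 on the log2 scale (adjusted p 0.795 and 0.845, edgeR), and Msr1 had 444.3 to 487.5 CPM in set 1 and 97.4 to 118.7 CPM in set 2. With the set in the model Msr1 turned to -0.07 and Cd163 was at 0.38. Lyve1, Ccl17, Ccl24, Cd209d, Retnlg and Pdcd1lg2 were below the filter.

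Of 25 genes of classical activation, 20 were tested, with a median log2 fold change of -0.14, 9 higher and 11 lower, and 1 had an unadjusted p under 0.05 in edgeR. With the set in the model 11 of the 20 did, 5 higher and 6 lower, where 15.1% of all genes did, and the median stayed at -0.14. The same model gave 7 of 28 genes of arginine and polyamine handling, 3 of 18 of the IL-4 and IL-13 response, 1 of 11 of the IL-10 response and 4 of 15 other genes of alternative activation at an unadjusted p under 0.05 in edgeR. Irf5, a transcription factor of this state, had 180 to 199.1 CPM in the controls and 206.9 to 250.4 CPM after RA (log2 fold change 0.29, unadjusted p = 0.0483 and adjusted p = 0.795 with edgeR). The cytokine genes Tnf and Il1b and the prostaglandin synthase Ptgs2 differed by -0.27, -0.56 and -0.86 on the log2 scale (adjusted p 0.842, 0.803 and 0.807, edgeR). In the model with the set these were -0.47, -0.21 and -1.27 (adjusted p 0.114, 0.733 and 0.0758, edgeR). Control 2 had the highest value for Tnf (195.1 CPM) and Ptgs2 (13.5 CPM), as it did for Nos2. Il6, a cytokine gene named after its values were seen because the model with the set called it, had 0.700, 11.65 and 0.619 CPM in control 1, 2 and 3 and 2.39, 2.73 and 0.136 CPM in RA-treated 1, 2 and 3. Its log2 fold change in that fit was -2.19 (adjusted p = 0.00636, edgeR), against -1.31 (adjusted p = 0.819, edgeR) without the set. In set 1 the single control, control 2, had 219 counts, against 43 in each of RA-treated 1 and 2. In set 2, control 1 and 3 had 10 and 9 counts, and RA-treated 3 had 2, under the floor of 3 counts.

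**Figure D3:**
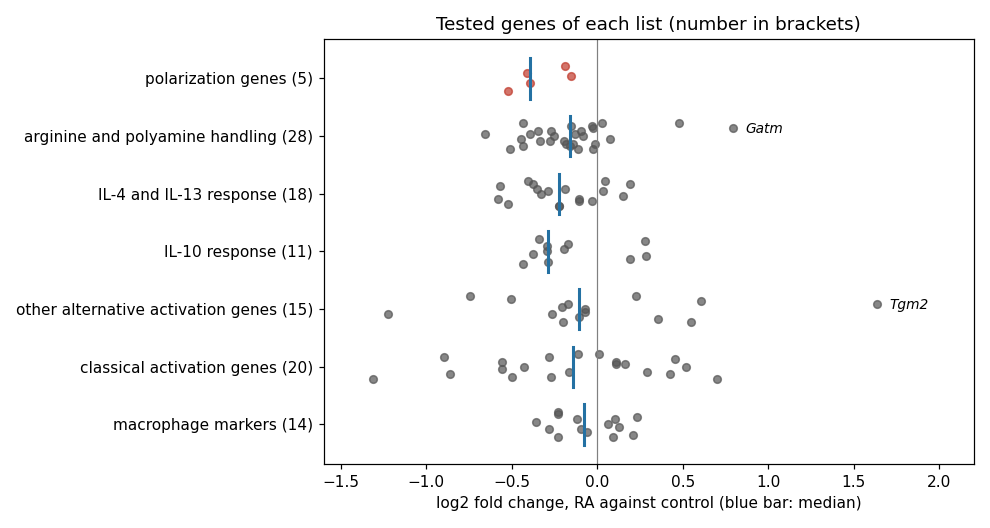
Log2 fold change of every tested gene, RA against control over the 6 libraries, for the polarization genes (red), the 5 related lists and the macrophage markers (grey), with blue bars at the medians. Tgm2 at 1.64 lies far from the other genes of its list, and the medians of the lists shown lie between -0.39 and -0.08.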

How the data were processed

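RNA of BMSCs was sequenced as 3 control and 3 RA-treated libraries. The authors deposited a table of unnormalized read counts per gene for each library. The submitters' processing notes name Bowtie2 2.2.3 and genome build mm10 without a role, and the counting program, annotation and strand setting are not given in the sources used here. Of 25722 identifiers, all were found in GENCODE M21 (GRCm38), which gave positions and exon lengths. In the tables, 24 gene names turned into dates were replaced.

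Counts were analysed in R 4.3.3 with edgeR 4.0.16 (filterByExpr, TMM scaling, quasi-likelihood F test of the 6 libraries without covariates, Benjamini-Hochberg adjustment over 13842 genes) and tested on simulated data. Log2 CPM used a prior count of 2, and ratios 0.5 added counts. Genes were called at an adjusted p under 0.05 and at least 1.5-fold. Confidence intervals of fold changes come from the spread between libraries. Floors of 3 counts cover counting error only, as PCR copies are not independent molecules. Alternatives were DESeq2 1.42.0, the likelihood ratio test, other scalings and filters, the replicate block, the library set as a covariate and leaving out each library.

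All 8 genes were named whatever their values. Some genes of the lists are not reported here. Of the pathway lists, genes were named that were called, that had an unadjusted p under 0.05 with groups apart, or that were picked by role. The genes, lists and library sets were chosen with earlier results of these data known. The correlation of same-numbered libraries (deviations from group means) was -0.51, 0.34 and 0.57, so the replicate numbers were not taken to pair them.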

Additional observations from a re-analysis of the deposited data

How the results depend on the processing

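The number of genes called over all genes moved from 6 to 136 with DESeq2 and 134 with edgeR's likelihood ratio test. It was 20 without a filter, 213 with the library set as a covariate and 491 at an unadjusted p under 0.05 and at least 1.5-fold. With 1 library left out it ran from 0 (without control 1) to 6 (without RA-treated 3), with 2 without control 2 and 1 without control 3, RA-treated 1 or RA-treated 2. In the related lists DESeq2 and the likelihood ratio test called Gatm and Tgm2, and the quasi-likelihood test without covariates called neither. Of the polarization genes 0 were called in any alternative run. The log2 fold changes of Il10 and Il4ra stayed below 0 in every alternative. With 1 library left out Il10 ran from -0.65 to -0.24, Il4ra from -0.64 to -0.215 and the median of the tested polarization genes from -0.65 to -0.27. With the library set as a covariate Mrc1 and Clec10a changed sign, to 0.435 and 0.173. With 1 library left out Nos2 ran from -0.63 to 1.98 and Mrc1 from -0.66 to 0.25, with both signs, while Clec10a ran from -1.19 without RA-treated 3 to -0.07 without control 3, and Nos2 was 1.98 without control 2 and 0.31 without RA-treated 3. With the replicate block Nos2 changed sign to 0.31, 4 genes were called, and 0 of the polarization genes were. Where a value moved the cause was not tested. Depth leaves Chil3, Retnla and Mgl2 without a comparison.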

Other observations

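Among the pathway lists, chosen after their values were seen, Cd209f, a lectin of resident macrophages, differed most between the library sets, with set 1 lower by -5.17 on the log2 CPM scale, without overlap. Of the tested genes of these lists that were higher in set 1, the cytokine gene Il6 (by 3.01) and the chemokine gene Ccl5 (by 2.42) differed most, both without overlap. Over the RA contrast Cd209f and Ccl5 had log2 fold changes of -1.22 and -0.56, with edgeR unadjusted p-values of 0.486 and 0.613. With the set in the model they were 0.32 and -0.98 (adjusted p 0.660 and 0.298, edgeR).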
